A study of Mus musculus with 4 samples.

Results

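The expression of 10 genes that mark the type of blood vessel was measured in single endothelial cells (ECs) of the mouse aorta. They comprised 5 arterial genes (Efnb2, Gja4, Gja5, Sox17 and Bmx) and 5 venous or capillary genes (Nr2f2, Ephb4, Plvap, Lrg1 and Aqp1), read by symbol from the 16408 genes listed in the unique molecular identifier (UMI) count tables. All 10 had UMIs in every mouse. The question was whether arterial and venous or capillary genes exclude each other within a cell, and whether either set differs with endothelial deletion of Epas1, the gene of the hypoxia-inducible transcription factor EPAS1.

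Cells came from whole aortas, cleared of adventitia and digested with enzymes, of 4 mice. The 2 mice labelled Epas1 EC-KO carried floxed Epas1 alleles and a Cre recombinase driven by Cdh5, an endothelial promoter (Epas1fl/fl, Cdh5Cre/+), and the 2 mice labelled Epas1 EC-WT carried the same floxed alleles without Cre (Epas1fl/fl, Cdh5+/+). Tamoxifen, which activates this Cre, was given to all 4 at an age of 6 weeks, and tissue was taken after a further 2 weeks, so that tamoxifen and the floxed alleles were common to both groups. Because the Cre acts in endothelium throughout the body, the groups do not differ by a deletion limited to the aorta. Live CD45-, CD31+ cells were sorted into 1 plate of 384 wells per mouse and sequenced from the 3′ end of transcripts (SORT-seq), and the sex of each mouse is not given in the sources used here.

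Of 1536 wells, 441 held a cell by the rule used here, at least 1000 UMIs outside spike-ins and mitochondrial transcripts and at most 25% of UMIs on mitochondrial transcripts. A further 21 cells with at least 1% of their UMIs on a list of 11 smooth muscle genes were set aside, 6 cells lying near that boundary, between 0.5% and 2%. This left 420 cells, 146 and 93 from the Epas1 EC-KO mice and 111 and 70 from the Epas1 EC-WT mice, with 549570 to 1009034 UMIs per mouse and medians of 3821 to 7419 UMIs per cell. Pecam1, which encodes the sorted antigen CD31, had a UMI in 417 of the 420 cells, whereas Ptprc, which encodes CD45, had a single UMI over all of them. No UMI of Prox1, the defining transcription factor of lymphatic ECs, was seen, which allows a share of cells with a Prox1 UMI of up to 0.714%. No well in plate rows L to P, 480 wells over the 4 plates, held a cell by this rule. The plates shared 1 set of well barcodes, so that kept cells fell on 214 well positions, 14 of which held a cell on all 4 plates. Epas1 itself lay at 3093 and 3342 CPM (UMIs of the gene per 1000000 UMIs) under the Epas1 EC-KO label and at 3334 and 2415 CPM under the Epas1 EC-WT label (log2 difference 0.19 ± 0.21 SE, adjusted P=0.951). As the position of the deleted exons relative to the 3′ tag is not given in the sources used here, this level does not check the deletion. The labels also place more cells in the Epas1 EC-KO plates, the opposite order to that described in the study's methods, so that each direction below refers to the libraries as labelled.

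Arterial ECs are set apart from venous ECs early in development by Notch signalling and SOXF transcription factors and carry the ligand ephrin-B2, whereas the nuclear receptor COUP-TFII, encoded by Nr2f2, represses Notch signalling and maintains venous identity. Ephrin-B2 and its receptor EphB4 mark opposite sides of the circulation and signal to each other between neighbouring cells. Capillary ECs carry genes for the exchange of fatty acids, water and solutes.

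Among the arterial genes, Bmx, a non-receptor tyrosine kinase of arterial endothelium and endocardium, was present at 392 ± 19.7 CPM (SD, n=4 mice), the smallest spread among the 10 genes. Its level was 392 and 375 CPM in the Epas1 EC-KO mice and 380 and 419 CPM in the Epas1 EC-WT mice, and it had a UMI in 286 of 420 cells. The gap junction genes Gja5 and Gja4, which couple arterial ECs electrically, lay at 306 ± 97.7 and 305 ± 60.9 CPM and were seen in 256 and 248 cells. Efnb2, which encodes ephrin-B2, lay at 273 ± 64.3 CPM in 272 cells and the SOXF factor Sox17 at 162 ± 35.1 CPM in 207 cells.

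The venous or capillary genes spanned a wider range. Plvap, which encodes the protein of the diaphragms that close fenestrae and caveolae, was the most abundant of the 10 at 1338 ± 478 CPM and had a UMI in 340 of 420 cells. The water channel gene Aqp1 followed at 613 ± 392 CPM in 166 cells, with 1194 CPM in Epas1 EC-WT mouse 2 and 332 to 478 CPM in the other 3 mice. Ephb4 lay at 110 ± 28.4 CPM in 169 cells. Both remaining genes were restricted to few cells: Lrg1, which encodes a secreted leucine-rich glycoprotein, at 85.8 ± 29.2 CPM in 43 cells and Nr2f2 at 42.2 ± 24.1 CPM in 36 cells. In each mouse the 5 cells with most Lrg1 UMIs held 77.8% to 97.9% of its UMIs, and the corresponding share for Nr2f2 was 70.8% to 89.4%. UMIs of both were thus concentrated in a minority of cells. Because each molecule is counted once at its 3′ end, these levels were compared between genes without scaling to transcript length. In the order of mean level from Plvap down to Nr2f2, the ranges over mice of neighbouring genes overlapped except between Efnb2 and Sox17.

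**Figure D1:**
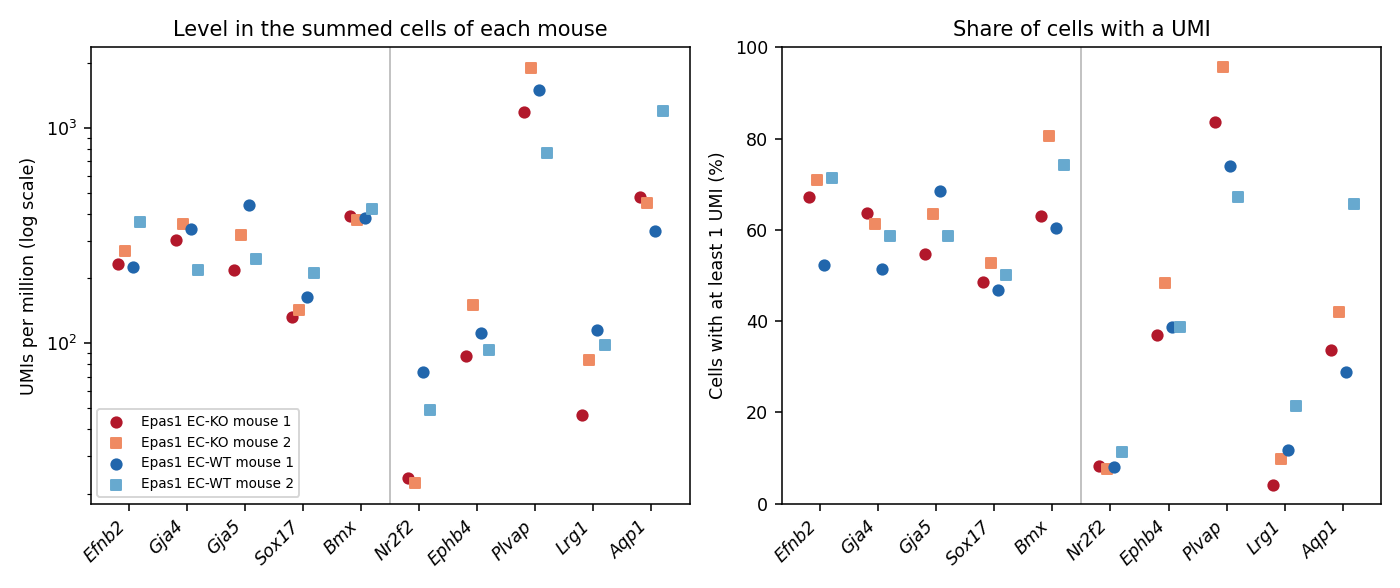
Level (left, UMIs summed over the cells of 1 mouse as CPM, log axis) and share of cells with a UMI (right, percent) of the 10 genes, 1 point per mouse. Plvap was highest at 768 to 1896 CPM and Nr2f2 lowest at 22.5 to 73.3 CPM. In level the groups lay apart for Sox17, Nr2f2 and Lrg1, all lower in Epas1 EC-KO, as were 20.0% of all genes. In share of cells the groups overlapped for Sox17 and Nr2f2.

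The same genes were read outside these cells. The wells that held no cell by the rule had medians of 42.0 to 64.5 UMIs, and summed over them the arterial genes lay at 221 to 371 CPM, near their levels in cells. These wells can hold free RNA as well as cells below the limits, which were not told apart. Nr2f2 had 5 UMIs (32.5 CPM) and Lrg1 9 UMIs (58.5 CPM) in those wells. In the 21 cells of the smooth muscle gene class, with a median of 5263 UMIs against 5618 in the other cells, the arterial genes had a UMI in 5 to 12 cells, Ephb4 in 3, Plvap in 10, Aqp1 in 11, Lrg1 in 1 and Nr2f2 in 9. The Nr2f2 share there, 9 of 21, exceeded that among the other cells, 36 of 420, and the same held for Aqp1, so that these shares do not by themselves show expression in ECs. The shares were not thinned, and in Epas1 EC-KO mouse 2 the class was deeper, with a median of 13048 against 7419 UMIs. In level Aqp1 was lower in the class in every mouse, at 138, 240, 263 and 787 against 478, 449, 332 and 1194 CPM. Nr2f2 was higher in level there except in Epas1 EC-WT mouse 2, where the class had 0 UMIs of it.

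All 10 genes are protein coding. On GRCm38 the genes that the comparisons below turn on span chr7:70351944-70366735 (Nr2f2, minus strand), chr17:56119678-56122001 (Lrg1, minus strand), chr6:55336432-55348555 (Aqp1, plus strand), chr3:96904693-97077416 (Gja5, plus strand) and chrX:164192842-164258193 (Bmx, minus strand). The sequence upstream of the transcription start was inspected for 4 genes that the comparisons below turn on, chosen with their values known, to show the sequence before a RefSeq start of an arterial gene (Bmx, Gja5) and a venous or capillary gene (Lrg1, Aqp1). The 250 bases before the start are printed from RefSeq (GRCm38.p6), 5′ to 3′ on the strand of the gene. Bmx lies on the minus strand (chrX:164258194-164258443), Gja5 on the plus strand (chr3:97032152-97032401), Lrg1 on the minus strand (chr17:56121947-56122196) and Aqp1 on the plus strand (chr6:55336049-55336298). The starts are those of the RefSeq models, so that by the spans above the Gja5 window lies inside the gene and the Lrg1 window overlaps its 5′ end. Capitals mark TGGGAA, the core of sites bound by the Notch partner RBPJ, or its reverse complement TTCCCA, and ACAAT, the core of sites bound by SOX factors, or its reverse complement ATTGT.
Bmx: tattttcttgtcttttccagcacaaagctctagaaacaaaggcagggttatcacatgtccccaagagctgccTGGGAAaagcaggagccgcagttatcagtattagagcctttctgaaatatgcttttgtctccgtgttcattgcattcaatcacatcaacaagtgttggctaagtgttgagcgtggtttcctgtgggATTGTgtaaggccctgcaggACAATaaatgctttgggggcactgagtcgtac
Gja5: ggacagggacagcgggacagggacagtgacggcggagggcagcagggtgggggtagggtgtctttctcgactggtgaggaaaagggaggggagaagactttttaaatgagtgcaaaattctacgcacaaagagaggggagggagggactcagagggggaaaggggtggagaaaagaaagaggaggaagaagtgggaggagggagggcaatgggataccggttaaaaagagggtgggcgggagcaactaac
Lrg1: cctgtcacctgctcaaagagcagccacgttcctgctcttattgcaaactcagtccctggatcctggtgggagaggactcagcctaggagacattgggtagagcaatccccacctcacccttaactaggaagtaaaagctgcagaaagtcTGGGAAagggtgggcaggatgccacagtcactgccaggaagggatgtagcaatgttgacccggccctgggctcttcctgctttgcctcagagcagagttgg
Aqp1: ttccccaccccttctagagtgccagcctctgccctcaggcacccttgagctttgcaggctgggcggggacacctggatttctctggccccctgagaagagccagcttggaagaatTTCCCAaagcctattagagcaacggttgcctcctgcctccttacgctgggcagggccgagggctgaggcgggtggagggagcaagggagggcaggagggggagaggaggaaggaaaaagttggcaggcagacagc
TGGGAA was found on either strand in 3 of the 8 genes with a RefSeq window, in Bmx 178 bases, in Lrg1 101 bases and in Aqp1 135 bases before the start, so that it was not limited to the arterial side. Over 32851 mouse promoter windows of the same length, 21.6% held it. ACAAT was found in 2 of 8, Bmx and Gja4, against 27.7% of all windows, and AGGTCA, the core recognised by nuclear receptors such as COUP-TFII, in 0 of 8 against 4607 of 32851 windows. None of the 3 motifs overlapped another. Sox17 and Plvap were not included.

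Most cells carried genes of both sets. Of 420 cells, 369 (87.9%) had a UMI of at least 1 arterial and at least 1 venous or capillary gene, 37 of arterial genes alone, 11 of venous or capillary genes alone and 3 of neither. The cells with both kinds were deeper, with a median of 6536 UMIs against 1954 for arterial alone, 1534 for venous or capillary alone and 1304 for neither. All 5 arterial genes were seen together in 64 cells, of which 57 also had Plvap, 30 Aqp1, 10 Lrg1 and 5 Nr2f2. Nearly every cell had a UMI of some arterial gene, and Plvap alone was seen in 340 of 420 cells. Most cells would therefore hold both kinds by their shares alone, so that this count cannot decide whether the genes exclude each other.

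Since a deep cell shows more of every gene, co-detection was measured after thinning each cell to 1000 UMIs. The ratio given is the number of cells with both genes of a pair, divided by the number obtained from multiplying their shares within each mouse, and 1 means that the genes were seen together as often as their shares alone give. Summed over the 25 pairs of an arterial with a venous or capillary gene the ratio was 0.885, with 0.909 and 0.894 in the Epas1 EC-KO mice and 0.893 and 0.823 in the Epas1 EC-WT mice. The 10 pairs within the arterial set gave 1.02 (0.959 to 1.05 over mice) and the 10 pairs within the venous or capillary set 1.32 (1.13 to 1.53). Mixed pairs were below 1 and below both other kinds in every mouse. Without thinning the mixed pairs gave 1.03 and the arterial pairs 1.09. Ratios are a description of these 4 mice and were not tested.

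**Figure D2:**
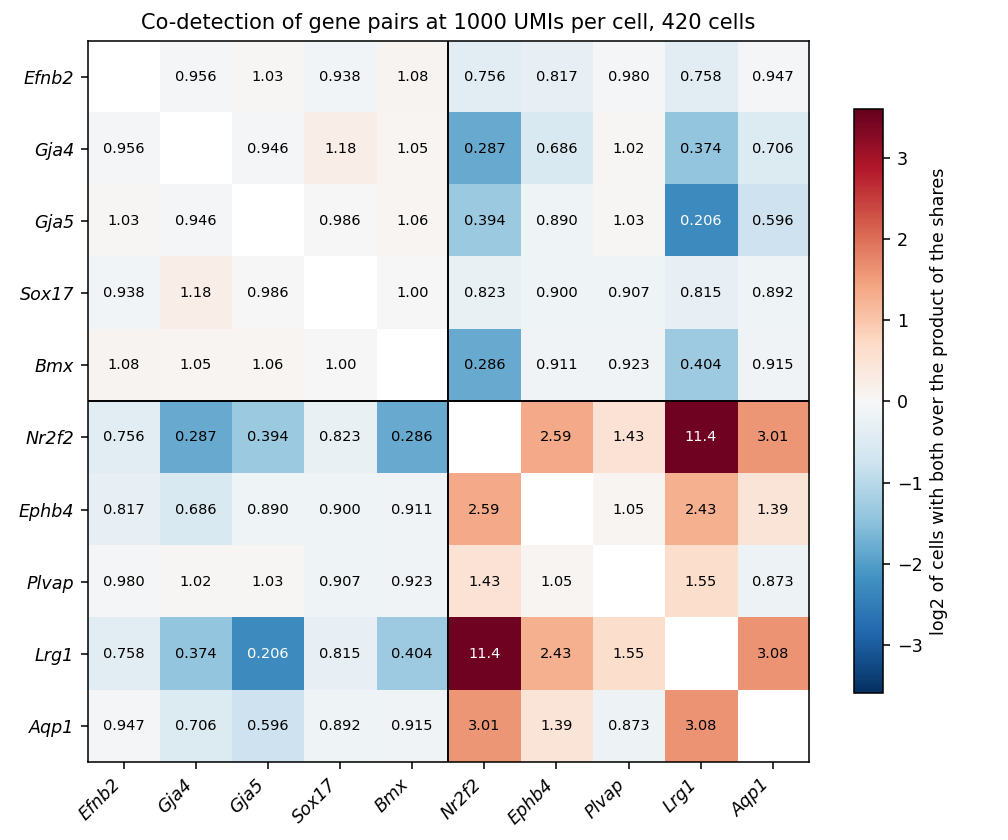
Co-detection of the 45 gene pairs at 1000 UMIs per cell over the 420 cells. Each cell of the grid gives the ratio of cells with both genes to the number from their shares within mice, and the colour its log2 (blue below and red above 1). The mixed block at upper right and lower left is mostly blue, down to 0.206 for Gja5 with Lrg1, and the venous or capillary block mostly red, up to 11.4 for Nr2f2 with Lrg1.

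The ratio varied widely among the mixed pairs. In 12 of 25 the ratio was below 1 in all 4 mice, and in 0 of 25 was it above 1 in all 4. These 12 paired Bmx with Lrg1, Nr2f2 and Plvap, Gja4 with Nr2f2, Ephb4, Lrg1 and Aqp1, Gja5 with Nr2f2, Lrg1 and Aqp1, and Efnb2 with Ephb4 and Aqp1. Thinned to 2000 UMIs instead, Efnb2 with Ephb4 was above 1 in Epas1 EC-WT mouse 1 (1.08). The lowest ratio was that of Gja5 with Lrg1 at 0.206 (0.0546 to 0.328), where 0.974 thinned cells held both against 4.72 from the shares. This ratio depended on depth, at 0.374 with 2000 UMIs and 0.787 without thinning, where Gja5 with Nr2f2 was the lowest. Bmx with Nr2f2 gave 0.286 (0.109 to 0.582), Gja4 with Nr2f2 0.287 (0.0255 to 0.827) and Gja5 with Nr2f2 0.394 (0.140 to 0.888). In the same order these pairs gave 0.468, 0.451 and 0.587 at 2000 UMIs and 0.651, 0.659 and 0.549 without thinning. Gja5 with Aqp1, which rests on more cells, gave 0.596 with a narrow range of 0.549 to 0.633. Gja5 with Plvap was the highest at 1.03, so that the most abundant venous or capillary gene was seen with this arterial gene about as often as their shares give. Sox17 was in none of the 12 pairs. Pairs with Nr2f2 or Lrg1 rest on few cells, and their ratios are imprecise.

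Within the venous or capillary set, 8 of 10 pairs were above 1 in all 4 mice. Nr2f2 with Lrg1 had the highest ratio, 11.4 (8.02 to 17.6), and before thinning 17 cells held both genes against 3.94 from the shares. Nr2f2 with Aqp1 gave 3.01 and Lrg1 with Aqp1 3.08. Plvap with Aqp1 went the other way at 0.873, below 1 in all 4 mice, although both belong to the same set. Leaving out Plvap moved the mixed ratio to 0.752 and that of the venous or capillary pairs to 2.57, while the arterial pairs stayed at 1.02. Of the 17 cells with both Nr2f2 and Lrg1, 6 had a UMI of Gja5 or Bmx, against 301 of 358 cells with neither Nr2f2 nor Lrg1, the medians being 5966 and 4930 UMIs.

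Next, cells with at least 1 Nr2f2 UMI were compared with cells without, within mice. There were 36 such cells, 12 and 7 in the Epas1 EC-KO mice and 9 and 8 in the Epas1 EC-WT mice (7.53% to 11.4% of cells), and their median depth was 7102 UMIs against 5356. UMIs were summed per mouse and class and tested with mouse as a block, leaving Nr2f2 out, and a gene was called at an adjusted P under 0.05. Of 4868 genes 67 (1.38%) were called, of which 52 (1.07%) were higher and 15 (0.308%) lower in cells with Nr2f2. Of the 9 other identity genes, Lrg1, Aqp1 and Plvap were called higher and Bmx lower. The 4 venous or capillary genes had a median log2 difference of 1.59 and the 5 arterial genes of -0.62, beside -0.03 over all genes.

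Lrg1 had the largest difference of the 9 genes. It was near the floor without Nr2f2 and passed the filter on low counts through the class where it was high. A call in this direction was therefore favoured, and the levels of Lrg1 are given as a description. It was present at 506, 744, 1224 and 498 CPM in cells with Nr2f2 of Epas1 EC-KO mouse 1 and mouse 2 and Epas1 EC-WT mouse 1 and mouse 2, against 4.33, 10.3, 13.6 and 25.8 CPM in the other cells of the same mice (log2 difference 5.85 ± 0.34 SE, adjusted P=3.91e-10). In the same order of mice, Lrg1 had a UMI in 2 of 12, 3 of 7, 6 of 9 and 6 of 8 cells with Nr2f2. Over all 36 such cells its median level per cell was 0 CPM, so that the sums rest on few cells. The classes did not overlap, and cells with Nr2f2 held 87.0% of all Lrg1 UMIs with 10.1% of all UMIs. Aqp1 lay at 1330, 1063, 1910 and 2987 CPM against 399, 381, 187 and 868 CPM, also without overlap (2.07 ± 0.24, adjusted P=1.81e-05). Plvap was at 1801, 3176, 3598 and 1600 CPM against 1131, 1755, 1309 and 617 CPM, higher in 4 of 4 mice (1.10 ± 0.18, adjusted P=0.00153). Its level was high in both classes, and the call was lost without Epas1 EC-WT mouse 1 (0.98, adjusted P=0.0531) and when the smooth muscle gene class was included (0.84, adjusted P=0.0979). Ephb4, at 153, 253, 278 and 166 CPM against 81.2, 138, 97.0 and 79.5 CPM, had a similar difference without overlap and was not called (1.10 ± 0.29, adjusted P=0.0660). For the 3 genes higher without overlap, the background was 3.35% of genes.

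**Figure D3:**
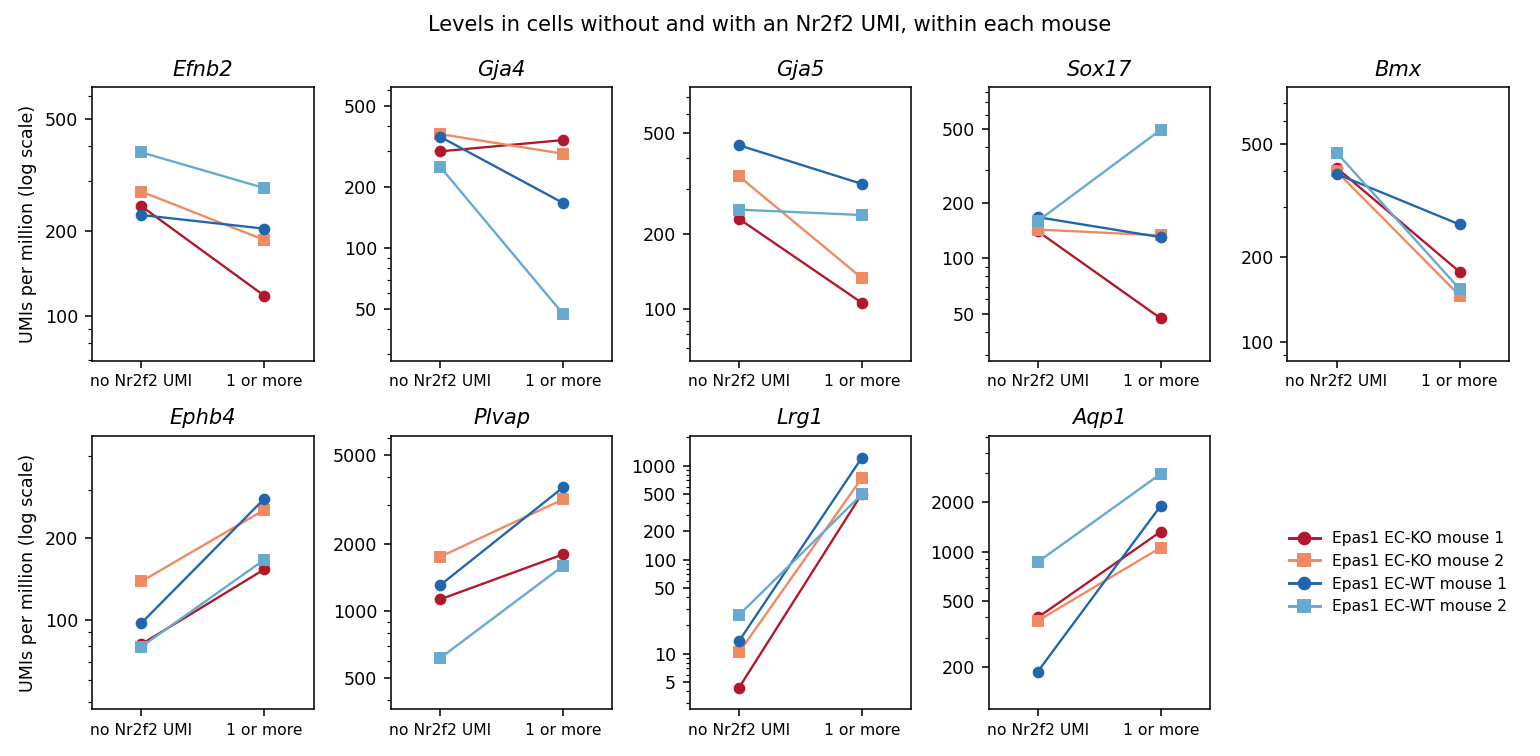
Identity genes in cells with and without Nr2f2. Each line joins the 2 classes of 1 mouse, in CPM on a log axis. Lrg1, Aqp1, Plvap and Ephb4 were higher with Nr2f2 in 4 of 4 mice, and Bmx, Gja5 and Efnb2 lower in 4 of 4.

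On the arterial side, Bmx lay at 177, 146, 260 and 154 CPM in cells with Nr2f2 against 412, 400, 392 and 466 CPM in the others, without overlap (log2 difference -1.20 ± 0.25, adjusted P=0.0133). It was the only 1 of the 9 genes that was lower without overlap, with a background of 4.38% of genes, and its call was lost without Epas1 EC-KO mouse 2 (-1.13, adjusted P=0.146). Gja5 was lower in 4 of 4 mice at 198 ± 96.6 against 317 ± 100 CPM and was not called (-0.69 ± 0.27, adjusted P=0.336). The same held for Efnb2 at 198 ± 68.5 against 282 ± 68.4 CPM (-0.52 ± 0.25, adjusted P=0.538). Gja4 was lower in 3 of 4 mice, at 341, 292, 167 and 47.4 CPM against 300, 365, 354 and 252 CPM (-0.62 ± 0.30, adjusted P=0.540). Bmx was thus the arterial gene that passed the test, and 12 to 22 of the 36 cells with Nr2f2 had a UMI of each arterial gene. Sox17 was not called (0.22 ± 0.38, adjusted P=0.930), and its direction rested on 1 cell of Epas1 EC-WT mouse 2. That cell held 33 Sox17, 5 Nr2f2, 34 Aqp1 and 0 Gja5 UMIs among 17377. Without it, a choice made after seeing the data, Sox17 stood at -0.48 and Ephb4 was called (1.18, adjusted P=0.0425). Without Epas1 EC-WT mouse 2 Sox17 stood at -0.60.

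Other genes of the pathways were counted from lists. Of the capillary list of 17 genes, 15 had UMIs and 6 passed the filter on low counts, and these 6 were called higher in cells with Nr2f2. Several were near the floor without Nr2f2 and passed through the class where they were high, so that this count was partly set by the filter. Cd36, a fatty acid transporter, lay at 408 to 711 CPM against 1.47 to 36.5 CPM (log2 difference 4.75 ± 0.39, adjusted P=1.45e-07), and Fabp4, a fatty acid binding protein of capillaries, at 1914 to 3014 against 89.7 to 179 CPM (4.09 ± 0.21, adjusted P=5.63e-11). Of the 36 cells with Nr2f2, 16 had a UMI of Cd36 and 23 of Fabp4. Meox2, a transcription factor of capillary ECs in heart and muscle, differed by 4.59 ± 0.66 and C1qtnf9 by 3.99 ± 0.49. Of the venous list, 3 of 6 tested were higher, of which Nrp2 (0 to 8.60 CPM without Nr2f2) passed the filter through the class where it was high. Nrp2, a co-receptor of veins and lymphatics, differed by 5.32 ± 0.57, Emcn, a sialomucin of veins and capillaries, by 2.23 ± 0.24, and Vwf, the clotting protein von Willebrand factor, by 0.83 ± 0.18. The arterial list was not called in either direction in any of the 13 tested (median -0.32). Of 10 pan-endothelial genes tested, the tight junction gene Cldn5 was lower (-1.01 ± 0.22, adjusted P=0.0215). The median of these 10 was 0.03, and 6 had differences above 0, up to 0.88. The other 3 venous genes tested had differences at or below 0, down to -0.62, and the 6 had a median of 0.20 beside -0.03 over all genes. Summed, the venous list was lower with Nr2f2 in Epas1 EC-WT mouse 2 (5949 against 7229 CPM).

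Markers of other cells were read beside this. The smooth muscle list summed to 1378 and 1395 CPM with Nr2f2 against 488 and 884 CPM without in the Epas1 EC-KO mice, and to 223 and 320 against 204 and 331 CPM in the Epas1 EC-WT mice. The fibroblast list summed to 4674 and 2419 against 2318 and 1290 CPM in the former and to 575 and 438 against 907 and 1350 CPM in the latter. None of the 4 smooth muscle and 4 fibroblast genes tested was called. Prox1, Pdpn and Ccl21a of the lymphatic list had 0 UMIs in every mouse, and Lyve1 had a UMI in 4 of the 36 cells (11.1%) against 28 of 384 (7.29%), with 15 UMIs in 1 cell of Epas1 EC-KO mouse 2. The part of these cells in the class differences was not tested.

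The cells were also described by their number of Nr2f2 UMIs. Of the 36 cells, 17 had 1 UMI and 19 had 2 or more. Lrg1 had a UMI in 6.77% of 384 cells without Nr2f2, 11.8% of the cells with 1 UMI and 78.9% of those with 2 or more, and lay at 11.7, 195 and 1263 CPM. Gja5 had a UMI in 63.5%, 52.9% and 15.8%, and lay at 309, 295 and 64.6 CPM. Gja4 was seen in 234 of 384, 11 of 17 and 3 of 19 cells, and Bmx in 270, 10 and 6. Few cells with 2 or more Nr2f2 UMIs thus carried Gja5 or Gja4. Median depths were 5356, 7717 and 6250 UMIs, and the part of depth was not tested. Efnb2 did not follow this order, with a UMI in 65.1%, 58.8% and 63.2% of cells, and Plvap was in 308, 15 and 17 cells. With the class defined by 2 or more UMIs Gja5 (-2.32, adjusted P=0.000221) and Gja4 (-1.99, adjusted P=0.00102) were called lower together with Bmx, and 228 genes were called in all against 67 with 1 or more. That class held only 3 and 4 cells in the Epas1 EC-KO mice and 6 and 6 in the Epas1 EC-WT mice. In Epas1 EC-KO mouse 1 Gja5 was not lower in it, at 243 against 229 CPM.

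**Figure D4:**
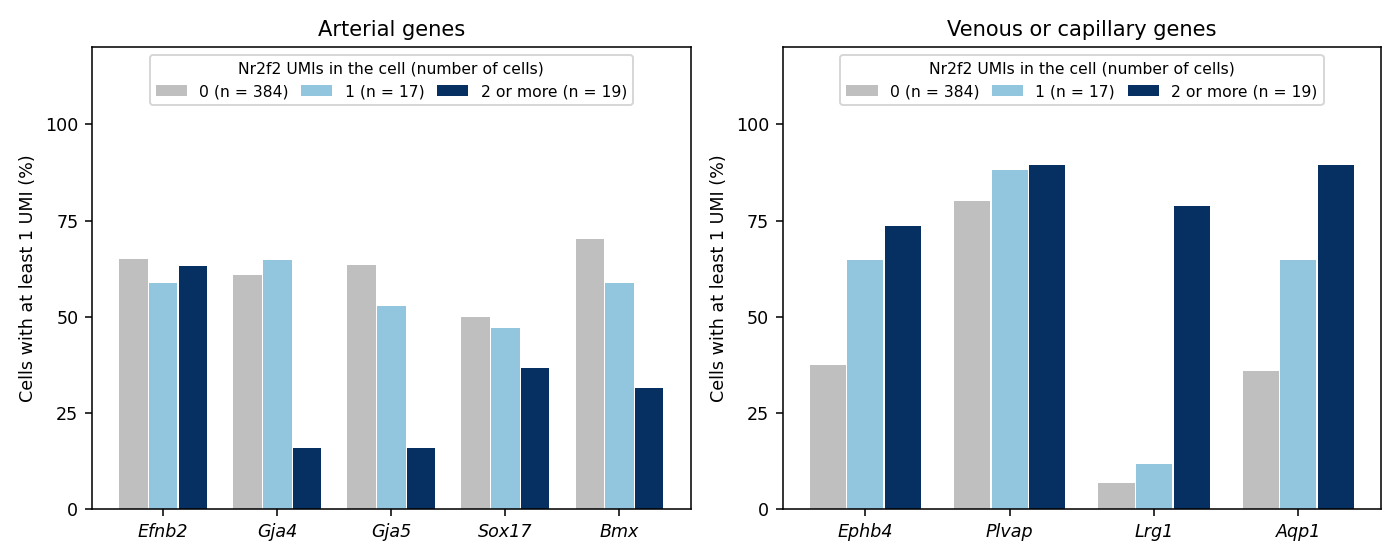
Share of cells with a UMI of each identity gene by the number of Nr2f2 UMIs in the cell. Bars show the percentage of the 384, 17 and 19 cells with 0, 1 and 2 or more Nr2f2 UMIs, pooled over the 4 mice and not thinned. Lrg1 went from 6.77% to 78.9% and Gja5 from 63.5% to 15.8%.

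The same question was put from the arterial side with Gja5. Cells with a Gja5 UMI numbered 256 (80, 59, 76 and 41 per mouse) and cells without 164. They are the same cells as in the Nr2f2 comparison, so that this is not independent of it. Cells with Gja5 were deeper, with a median of 6834 against 4026 UMIs. Of 5859 genes 32 (0.546%) were called, of which 28 (0.478%) were lower and 4 (0.0683%) higher in cells with Gja5, and 3 of the 9 other identity genes were lower: Nr2f2, Lrg1 and Aqp1. Nr2f2 and Lrg1 passed the filter through the cells without Gja5, where they were high, so that this count was partly set by the filter. Nr2f2 lay at 12.2 ± 7.64 CPM with Gja5 against 140 ± 122 CPM without (log2 difference -3.40 ± 0.37, adjusted P=6.61e-08). Lrg1 lay at 16.5 ± 14.2 against 299 ± 189 CPM (-4.23 ± 0.31, adjusted P=1.76e-12). Aqp1 lay at 411 ± 239 against 1155 ± 778 CPM (-1.39 ± 0.19, adjusted P=4.84e-06), with a small difference in Epas1 EC-KO mouse 1 (467 against 496 CPM), and DESeq2 did not call it (-1.46, adjusted P=0.235). In Epas1 EC-KO mouse 1, single cells with 123 and 69 Aqp1 UMIs held much of the 305 seen in cells with Gja5. Plvap was not called (-0.46 ± 0.12, adjusted P=0.102), but was with cells of at least 2000 UMIs (-0.53, adjusted P=0.0282) or 4000 UMIs (-0.62, adjusted P=0.0246). Ephb4 was not called (-0.46 ± 0.23, adjusted P=0.683).

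None of the other arterial genes was called. Efnb2 differed by 0.04 ± 0.16 (interval of 2 SE either way -0.28 to 0.36), Gja4 by 0.04 ± 0.15, Bmx by 0.23 ± 0.15 and Sox17 by -0.33 ± 0.21, and adjusted P lay between 0.812 and 0.982. Of the arterial list 0 of 14 tested genes were called, whereas 4 of the 15 capillary genes with UMIs passed the filter and were called lower in cells with Gja5, a count partly set by the filter, which some passed through the cells without Gja5. Kdr, the main receptor for vascular endothelial growth factor, differed by -2.97 ± 0.58, Cd36 by -2.88 ± 0.39, Fabp4 by -2.57 ± 0.18 and Fabp5 by -1.53 ± 0.35. Emcn was the 1 gene called of 6 on the venous list (-1.78 ± 0.19). The rest of that list mostly went the other way, with 4 of the 6 above 0, up to 1.53, and a median of 0.23. Of 5 fibroblast genes tested, Lum (-2.11 ± 0.34) and Dcn (-1.64 ± 0.21), both matrix proteoglycans, were lower. The median of the 5 was -0.26, and 2 had differences above 0, up to 0.36. Lum lay at 72.0, 29.9, 11.4 and 5.20 CPM with Gja5 against 443, 118, 0 and 12.1 CPM without. Dcn lay at 487, 105, 57.1 and 85.9 CPM with Gja5 against 1814, 372, 267 and 54.5 CPM without, lower in 3 of 4 mice. Their part in the difference was not tested. Cells without Gja5 thus carried more of those 4 capillary genes and no called difference in the other arterial genes.

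**Figure D5:**
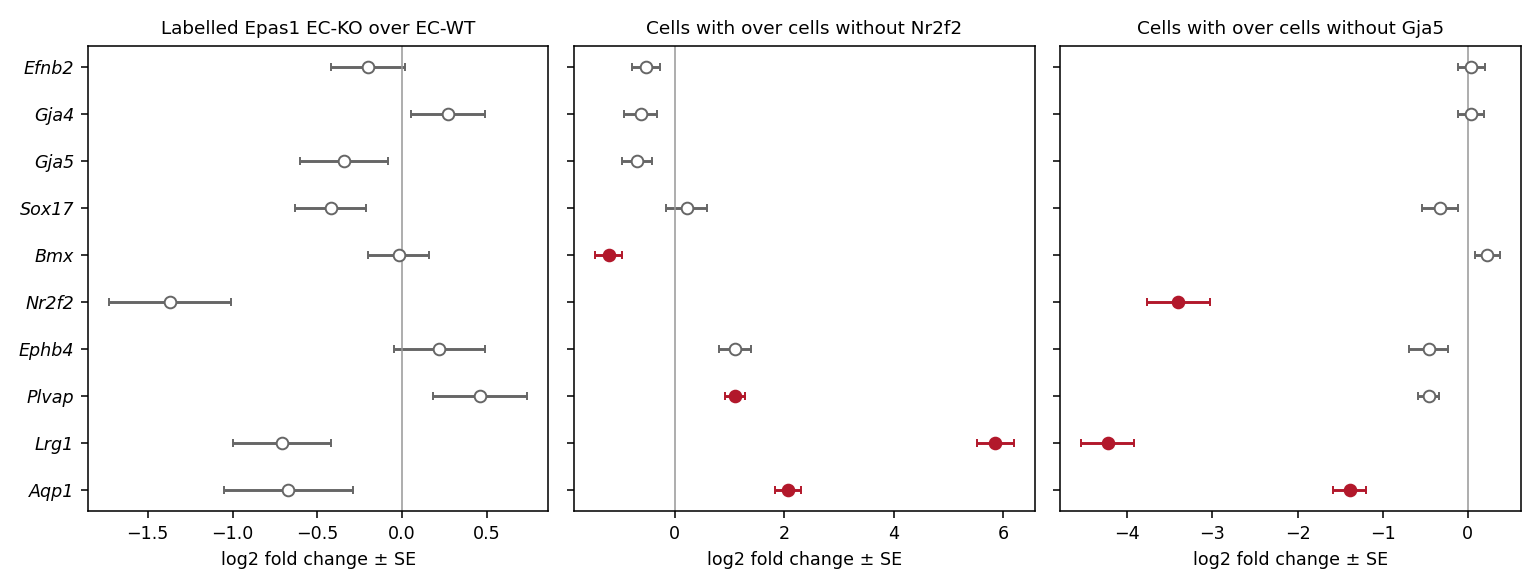
Log2 differences of the 10 genes in the 3 comparisons. Points show the edgeR estimate and bars its SE, with filled points for called genes, for libraries labelled Epas1 EC-KO over Epas1 EC-WT (left), cells with over without Nr2f2 (middle) and cells with over without Gja5 (right), each panel with its own scale. Lrg1 ranged from 5.85 with Nr2f2 to -4.23 with Gja5, and no gene was called between the labelled groups.

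Finally, the labelled groups were compared over sums per mouse. In such sums fewer cells of a type and less RNA per cell cannot be told apart. None of the 10 genes was called by edgeR, beside 0 (0%) of 8128 genes tested. At an unadjusted P under 0.05 there were 455 genes (5.60%), among them Nr2f2 and Lrg1, and DESeq2 called 0 with 115 at that level. Nr2f2 lay at 23.8 and 22.5 CPM in the Epas1 EC-KO mice and 73.3 and 49.1 CPM in the Epas1 EC-WT mice (log2 difference -1.37 ± 0.36, adjusted P=0.835). The share of cells with Nr2f2 was 8.22% and 7.53% against 8.11% and 11.4%, and the share with 2 or more UMIs 2.05% and 4.30% against 5.41% and 8.57%. Lrg1 lay at 46.6 and 83.4 against 115 and 98.3 CPM (-0.71 ± 0.29, adjusted P=0.877), a difference of -0.36 without Epas1 EC-KO mouse 1 and -1.13 without Epas1 EC-KO mouse 2. Sox17 lay at 132 and 142 against 164 and 211 CPM (-0.42 ± 0.21, adjusted P=0.877), a difference of -0.20 without the cell with 33 Sox17 UMIs and -0.18 in cells without Nr2f2. In these 3 of 10 genes the groups did not overlap, all lower in Epas1 EC-KO, where 20.0% of all genes were lower without overlap.

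The groups overlapped for the other 7 genes. Aqp1 lay at 478 and 449 CPM against 332 and 1194 CPM (-0.67 ± 0.38, adjusted P=0.880), and Plvap at 1187 and 1896 against 1501 and 768 CPM (0.46 ± 0.28, adjusted P=0.891). The 2 Epas1 EC-WT mice lay far apart here, and either could decide a call. Without Epas1 EC-WT mouse 1, Aqp1 (-1.31, adjusted P=7.64e-06) and Plvap (1.05, adjusted P=0.00482) were among 73 genes called of 9003 tested. Without Epas1 EC-WT mouse 2 Aqp1 stood at 0.49, and Nr2f2 (-1.64, adjusted P=0.0243) was among 19 genes called of 8902. Plvap stood at 0.04 in that fit and at 0.12 without Epas1 EC-KO mouse 2. The arterial genes Bmx (-0.02 ± 0.18), Efnb2 (-0.20 ± 0.22), Gja4 (0.27 ± 0.22) and Gja5 (-0.34 ± 0.26) and the receptor Ephb4 (0.22 ± 0.27) had adjusted P of 0.917 to 0.998. Between Epas1 EC-KO mouse 2 and Epas1 EC-WT mouse 1, whose libraries name the same flow cell, Efnb2 differed by 0.23 and Aqp1 by 0.42, opposite in sign to the estimates over all mice. The fibroblast list summed to 2516 and 1402 CPM in Epas1 EC-KO and 879 and 1210 CPM in Epas1 EC-WT, and the smooth muscle list to 563 and 935 against 206 and 329 CPM. None of 6 fibroblast and 5 smooth muscle genes tested was called, and their part in these values was not tested. The difference between the labelled groups in the effect of Nr2f2 or Gja5 class was not called for any identity gene, where 17 of 4868 genes were called for Nr2f2 and 1 of 5859 for Gja5, with Gja4 nearest in the Nr2f2 comparison (1.60, adjusted P=0.380 by edgeR).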

How the data were processed

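Per the labels, CD45-, CD31+ aortic cells were sequenced by SORT-seq, and the submitters' processing notes name BWA 0.7.15, GRCm38 (mm10) and Seurat. The authors deposited, per plate, read counts, UMI counts (used here) and estimated counts of transcripts, UMI counts corrected by the authors for UMIs used more than once, an alternative here after rounding to whole numbers. Spike-in and mitochondrial rows stayed out of library sizes. UMIs were summed per mouse, or per mouse and class, and tested by edgeR 4.0.16 (TMM, filterByExpr, quasi-likelihood test, Benjamini-Hochberg over all genes tested) in R 4.3.3, with DESeq2 1.42.0 as an alternative, and classes used mouse as a block. Standard errors derive from the fitted log2 difference and its test statistic. Thinning to 1000 UMIs was an exact hypergeometric calculation (scipy 1.17.1). No doublet caller was run, and whether wells held more than 1 cell was not tested.

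The 10 genes and all lists were chosen with earlier results of these data known. Named besides them were Epas1, Pecam1, Ptprc, Cd36, Fabp4 and, per list and comparison, up to 4 called genes in each direction by size of difference. Markers read for the background (Prox1, Pdpn, Ccl21a, Lyve1) and the cell that decides Sox17 were singled out after their values were seen. The fits were tested on simulated data: with log2 changes of 1 the test called 44.9% of changed genes between groups, 30% between Nr2f2 classes and 53.8% between Gja5 classes, and with changes of 2 it called 92.5%, 81.6% and 100%. In the same order, 7 of 137, 3 of 101 and 5 of 138 calls fell on unchanged genes. Changed genes were drawn above a limit on mean count, varied by the trend over genes, and were counted only if they passed the filter. The shares called can therefore be too high for genes with few UMIs or a larger spread. Totals of 549570 to 1009034 UMIs per mouse put 3 UMIs at 2.97 to 5.46 CPM. The limit given for a count of 0 covers counting error only. Whether mice of the same number in both groups were linked is not given in the sources used here. Sequences are from RefSeq, GRCm38.p6.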

Additional observations from a re-analysis of the deposited data

How the results depend on the processing

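Over the alternatives run for the 10 genes, 372 log2 differences were counted as unchanged, 15 changed sign, and 8 passed and 4 lost the threshold. Unchanged meant the same direction and side of the threshold. Within a flow cell, where no gene had a test, it meant within 1 SE of the main estimate. There 2 genes (Efnb2 and Aqp1) lay further away and also changed sign. Between labelled groups, the count of genes called, 0, became 19 without a filter on low counts, 1 in cells without Nr2f2, 10 with the smooth muscle gene class and 18 to 73 without 1 mouse, and identity genes called 0 to 2 without 1 mouse. Over the fits without 1 mouse, signs changed for Bmx (-0.09 to 0.04, and 0.03 without Epas1 EC-WT mouse 2), Ephb4 (-0.17 to 0.54), Gja5 (-0.71 to 0.16), Efnb2 (-0.50 to 0.16), Gja4 (-0.03 to 0.63) and Aqp1 (-1.31 to 0.49). Where this left a group with 1 mouse, that mouse was assumed to vary like the others. With a replicate block, pairing mice by number, 0 genes were called (331 at an unadjusted P under 0.05). The deviations of same-numbered mice correlated at -0.0370 over 8128 genes. With 1 difference between mice per group, this value cannot decide whether same-numbered mice were linked. Between Nr2f2 classes, the 67 genes became 175 without a filter, 228 with 2 or more UMIs and 28 to 85 without 1 mouse, and Sox17 turned to -0.02 without a filter, -0.07 with 2 or more UMIs, -0.48 without 1 cell, and ranged from -0.60 to 0.57 without 1 mouse. The median over all genes shifted to -0.43 without a filter and -0.15 with 2 or more UMIs. Between Gja5 classes, the 32 genes became 14 with DESeq2, 77 without a filter and 107 with the smooth muscle gene class. Efnb2 turned to -0.0017 with 2 or more Gja5 UMIs and, without 1 mouse, Efnb2 ranged from -0.03 to 0.12, Gja4 from -3.9e-05 to 0.09 and Sox17 from -0.49 to 0.03. Unthinned co-detection, as the mean of the 4 mice, was 1.03 for mixed and 1.10 for arterial pairs, against 0.880 and 1.02 thinned. The cause of these changes was not tested. Depth limits what Nr2f2 can show, with 115 UMIs over all cells.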
